A study of Mus musculus with 4 samples.

Results

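Dyneins are motors that walk along microtubules. Here 43 rows of the count table, out of 55353 gene symbols, were taken by their names as the mouse dynein genes: 21 axonemal rows, 17 cytoplasmic rows and 5 genes of the dynein axonemal assembly factor series. The axonemal rows are 15 heavy chains, 2 intermediate chains, 3 light chains and the antisense RNA Dnah2os. The cytoplasmic rows are 5 genes of dynein 1, 2 genes of dynein 2, 9 light chains and the processed pseudogene Dynlt1-ps1. The rows were chosen by symbol, and the group was proposed after the fold changes and calls of this same contrast had been seen. The calls below therefore describe these genes and support nothing about them as a group.

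A dynein is built around heavy chains, which hydrolyse ATP and hold the microtubule, together with intermediate and light chains that carry cargo and regulate the motor. Axonemal dyneins form the outer and inner arms that make motile cilia and sperm flagella beat, and assembly factors fold and pre-assemble these arms in the cytoplasm. Cytoplasmic dynein 1 moves vesicles, organelles and the spindle in nearly every animal cell, while cytoplasmic dynein 2 returns material from the tip of the cilium to its base. Embryonic stem cells in culture have no motile cilia, although they can carry a primary cilium.

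RNA was measured in 4 libraries of E14, a feeder-independent mouse embryonic stem cell line (strain label 12910la), grown on gelatin in medium with serum and LIF. The controls are 2 libraries with the genotype label wild type. The other 2 carry an Ssrp1 knockout made with Cas9 and a guide RNA. Ssrp1 is a subunit of the histone chaperone FACT. Nothing states that the 2 libraries of a group are separate cultures or clones, and p-values here cover no more than the spread among these libraries, possibly a technical one. The treatment description also names an empty pSuper puro vector, an shRNA of Usp7 and puromycin, without saying whether the controls received any of them.

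Total counts lay between 22611434 and 25344190 per library. The Ssrp1 transcript was at 282.2 and 305.7 CPM in control cells and 305.5 and 327.3 CPM in the labelled-knockout libraries (log2 fold change 0.11 ± 0.06, SE; edgeR adjusted p 0.226), and that of its partner Supt16 had a log2 fold change of 0.19 (edgeR adjusted p 0.018). The transcript level therefore does not check the labels, and the treated samples are named by their label, as labelled-knockout libraries. Levels are given as CPM, the count divided by the scaled library size and expressed on a common scale. Ribosomal-RNA-like genes took 9.72% and 10.3% of counts in control cells against 6.30% and 4.64% in the labelled-knockout libraries. Of 17482 genes tested, 33.6% were called, 16.5% higher and 17.2% lower (edgeR's quasi-likelihood test, adjusted p of 0.05). Of 8 fixed embryonic stem cell markers 6 were called lower and 1, Nanog, higher; their summed level was 4684 and 4840 CPM in control cells and 3814 and 3731 CPM in the labelled-knockout libraries. Of 12 markers of the 2-cell-like state, 11 were tested and 11 were called higher, with sums of 0.907 and 0.368 against 86.9 and 93.3 CPM; their part in the results below was not tested. None of these 11 had more than 9 counts in a control, so they reached the test through the labelled-knockout libraries and had to come out higher.

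The markers of cells that build motile axonemes were low in both groups. The 10 multiciliated-cell markers summed to 14.9 and 14.5 CPM in control cells and 12.7 and 12.9 CPM in the labelled-knockout libraries, most of it from Tppp3, which was between 8.91 and 11.6 CPM. Of the 4 that could be tested 0 were called by edgeR or DESeq2 and 0 had an unadjusted edgeR p under 0.05. Foxj1, the transcription factor that switches on motile cilia genes, had 23 and 32 counts in control cells and 18 and 25 in the labelled-knockout libraries, while Gmnc and Sntn had 0 in all 4. Of the 10 spermatid markers 8 were at 0 in every library, and Spem1 and Spaca1 together gave sums of 0.126 to 0.408 CPM.

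Of the 43 rows, 36 passed the filter on low counts. Among these, 8 were called higher and 6 lower at an adjusted p of 0.05 (edgeR's quasi-likelihood test with Benjamini-Hochberg adjustment over 17482 genes). Over all tested genes 33.6% were called, 16.5% higher and 17.2% lower. For 30 of the 36 rows the values of the 2 groups did not overlap, against 66.6% of all tested genes. The median log2 fold change was -0.07 over the 36 rows and 0.00 over all tested genes. Axonemal rows had 2 of 16 called higher and 4 of 16 lower, with a median of -0.21. Cytoplasmic rows had 5 of 15 higher and 2 of 15 lower, with a median of 0.03. The 5 higher rows were all light chains, which were placed on the cytoplasmic side by symbol alone. Without the light chains and their pseudogene, 0 of 6 cytoplasmic rows were higher and 2 lower. Whether the axonemal and cytoplasmic rows differ was not tested.

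**Figure D1:**
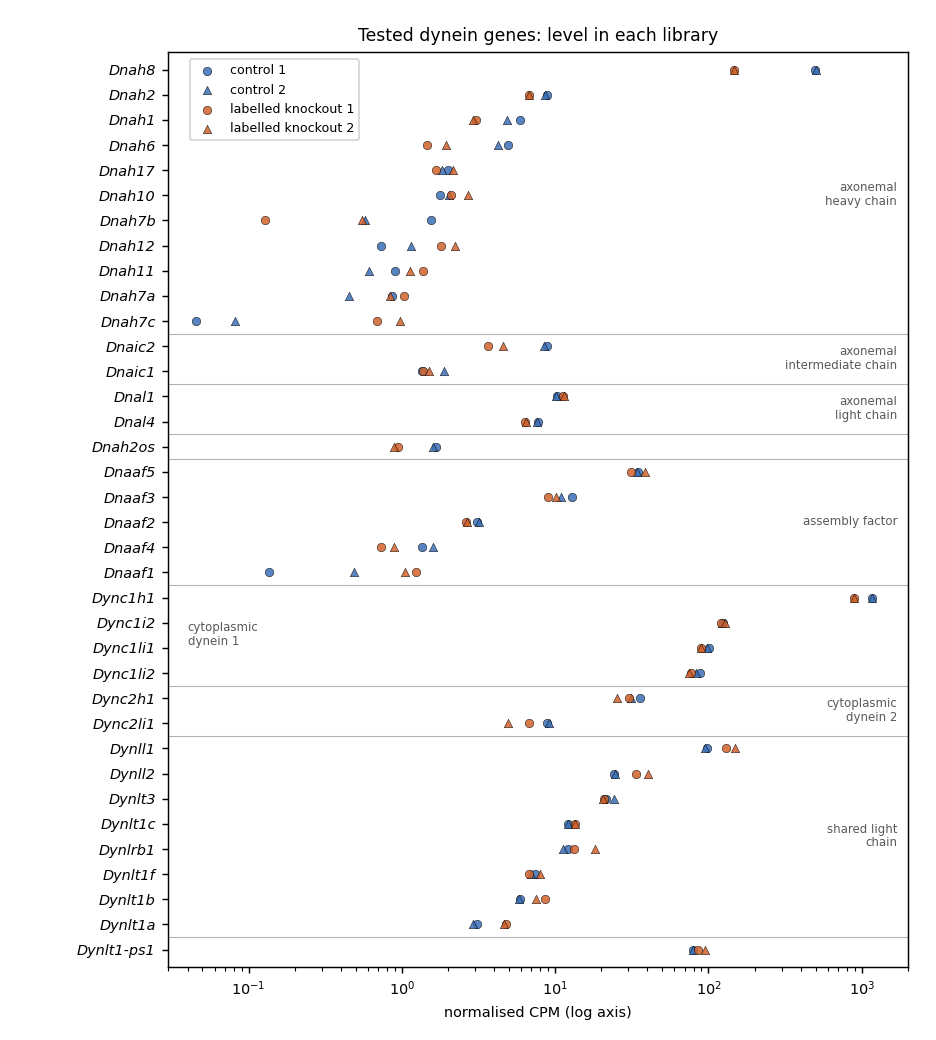
Normalised CPM (horizontal log axis) of the 36 tested dynein rows in each library, with controls in blue, libraries labelled knockout in orange, circles for replicate 1 and triangles for replicate 2; rows are ordered by role. Dnah8 stands at 497.4 and 503.7 CPM in control cells and 146.7 and 145.9 CPM in the labelled-knockout libraries, while 7 of the other tested axonemal heavy chains have a control mean between 0.0635 and 1.92 CPM.

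Dnah8 dominated the axonemal class. It encodes an axonemal heavy chain best known from the sperm flagellum (chr17:30624354-30877365, plus strand, GRCm38/mm10). Its level was 497.4 and 503.7 CPM in control cells and 146.7 and 145.9 CPM in the labelled-knockout libraries. Replicates lay close together and the groups did not overlap, nor did those of 66.6% of all tested genes. On the log2 scale the difference was -1.77 ± 0.06 (SE over 2 libraries per group; edgeR adjusted p 4.04e-14). In bulk RNA, fewer cells with the transcript and less transcript per cell cannot be told apart. Per kilobase of exon Dnah8 was at 18.5 and 18.8 CPM per kb in control cells, which ranked 5 among the 43 rows. It held 89.6% and 90.3% of the CPM of all axonemal rows in control cells and 76.7% and 75.4% in the labelled-knockout libraries. These shares are not corrected for length, and Dnah8, with 26.8 kb of exon, is the longest of the rows.

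The annotations give Dnah8 different starts. The GENCODE M21 span above begins within Glo1, on the other strand, and RefSeq places the start just outside Glo1. Glo1, which encodes glyoxalase 1 of methylglyoxal detoxification, runs the opposite way from a start at 30626871, and the noncoding RNA 1700097N02Rik runs the same way as Glo1 from 30626905. The stretch shown here lies between the start of Glo1 and the RefSeq start of Dnah8 (chr17:30626872-30626934, plus strand, GRCm38.p6). It is shown because transcripts leave it in both directions, and it holds none of the motifs given further on, so it has no capitals.
Dnah8: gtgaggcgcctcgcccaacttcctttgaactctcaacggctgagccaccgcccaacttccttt
Glo1 was at 175.4 and 175.2 CPM in control cells and 166.5 and 146.3 CPM in the labelled-knockout libraries (log2 fold change -0.17, edgeR adjusted p 0.0737), so it was not called. 1700097N02Rik, chosen after its values were seen, was at 18.3 and 17.3 CPM in control cells and 6.72 and 8.99 CPM in the labelled-knockout libraries. Its log2 fold change was -1.18 ± 0.15 (edgeR adjusted p 3.77e-06). Its exons overlap those of the GENCODE M21 gene Dnah8 by 207 bases on the other strand, and the strand setting of the counting is not given in the sources used here, so reads may be shared between the pair. The nearest tested genes that do not overlap Dnah8 are Btbd9, at 0.14 on the log2 scale (edgeR adjusted p 0.296), and Glp1r, at -0.33 (edgeR adjusted p 0.141). Around the 14 called dynein genes, 5 of 28 such neighbours were called in the member's direction, 3 in the opposite one and 20 not called. Dynlt1a and Dynlt1b, neighbours of each other, are among the 5. All tested genes had 16.5% called higher and 17.2% lower.

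The remaining axonemal heavy chains were scarce, and those called went both ways. Dnah6, an inner arm heavy chain, was at 4.94 and 4.25 CPM in control cells and 1.45 and 1.93 CPM in the labelled-knockout libraries (log2 fold change -1.43 ± 0.27, edgeR adjusted p 0.000337). Dnah1, an inner arm heavy chain needed for the sperm flagellum, was at 5.89 and 4.86 CPM and then 3.04 and 2.90 CPM (log2 fold change -0.85 ± 0.22, edgeR adjusted p 0.00543). Both were lower in each library labelled knockout than in either control, and the groups kept apart for 66.6% of all tested genes. The call on Dnah1 was lost without control 1 (edgeR adjusted p 0.0563).

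Dnah12 and Dnah7c were called higher, both from low levels. Dnah12, an inner arm heavy chain, was at 0.726 and 1.14 CPM in control cells and 1.80 and 2.23 CPM in the labelled-knockout libraries (log2 fold change 1.09 ± 0.39, edgeR adjusted p 0.0344). That call was lost with DESeq2 (adjusted p 0.105), without control 1 (edgeR adjusted p 0.217) and without replicate 2 of the labelled-knockout libraries (edgeR adjusted p 0.170). Dnah7c had 1 and 2 counts in control cells and 16 and 23 counts in the labelled-knockout libraries, a ratio of 12.8 after scaling (95% Clopper-Pearson interval 4.08 to 64.9, counting error only; edgeR adjusted p 0.00112). It reached the filter only through the labelled-knockout libraries, and a row that does so has to be higher there.

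Dnah7c is 1 of 3 near-copies of an inner arm heavy chain gene on chromosome 1. In the annotated transcripts, 46.8% of its 50-base windows occur also in another gene, and the figure is 38.6% for Dnah7a and 30.0% for Dnah7b. Dnah7b, which was not called, had 34 and 14 counts in control cells and 3 and 13 in the labelled-knockout libraries (log2 fold change -1.61 ± 0.64, edgeR adjusted p 0.058). Single libraries decided this value: it was -2.17 without control 2 (edgeR adjusted p 0.0154), -2.98 without replicate 2 of the labelled-knockout libraries (edgeR adjusted p 0.0106), -0.93 without replicate 1 of those (edgeR adjusted p 0.328) and -0.76 without control 1 (edgeR adjusted p 0.633), and without the filter the adjusted p was 0.0222. Dnah7a had 19 and 11 counts and then 24 and 20 (log2 fold change 0.52, edgeR adjusted p 0.462). Summed over the copies, the counts were 54 and 27 in control cells and 43 and 56 in the labelled-knockout libraries, and these ranges overlap. The level of the 3 genes together was 1.78 ± 0.952 CPM in control cells and 2.10 ± 0.363 CPM in the labelled-knockout libraries (SD, n = 2), and the split between the copies depends on how shared reads were counted.

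Of the other tested heavy chains, Dnah2, an inner arm gene, was the most abundant at 8.84 and 8.54 CPM in control cells and 6.72 CPM in each library labelled knockout (log2 fold change -0.37, edgeR adjusted p 0.0848). Its antisense RNA Dnah2os, which overlaps 312 exon bases, was at 1.68 and 1.59 CPM and then 0.941 and 0.883 CPM (log2 fold change -0.84, edgeR adjusted p 0.111). Neither was called. For both the groups kept apart, as they did for 66.6% of all tested genes. Dnah10, Dnah11 and Dnah17 stayed between 0.613 and 2.69 CPM in the 4 libraries, with log2 fold changes of 0.33, 0.72 and -0.01.

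Dnah14, Dnah3, Dnah9 and Dnah5 did not pass the filter. Dnah14 had 1 and 0 counts in control cells and 7 and 9 in the labelled-knockout libraries, a ratio of 15.8 with a 95% Clopper-Pearson interval of 2.45 to 662. Without the filter its edgeR adjusted p was 0.0785. Dnah3 had 0 counts in 3 libraries and 4 in the other. Dnah5 and Dnah9, outer arm heavy chains of airway cilia, had at most 8 counts in any library.

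Of the 2 axonemal intermediate chains, 1 was called, against 33.6% of all tested genes. Dnaic2, an intermediate chain of the outer arm, was at 8.84 and 8.50 CPM in control cells and 3.64 and 4.58 CPM in the labelled-knockout libraries (log2 fold change -1.07 ± 0.19, edgeR adjusted p 0.000154). Dnaic1, the other outer arm intermediate chain, was at 1.36 and 1.88 CPM and then 1.37 and 1.51 CPM (log2 fold change -0.17, edgeR adjusted p 0.754), and its groups overlapped. The light chains Dnal1 and Dnal4 were at control means of 10.2 and 7.63 CPM, with log2 fold changes of 0.15 and -0.25, and were not called. Dnali1, a light intermediate chain of the inner arm, had at most 3 counts in a library.

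Among all tested genes 33.6% were called, and among the assembly factors 1 of 5. The most abundant was Dnaaf5, at 34.5 and 33.9 CPM in control cells and 31.0 and 38.5 CPM in the labelled-knockout libraries (log2 fold change 0.02, edgeR adjusted p 0.879). Dnaaf3, Dnaaf2 and Dnaaf4 had log2 fold changes of -0.31, -0.25 and -0.87, and none of these 3 was called by edgeR or DESeq2, although 1, Dnaaf3, had an unadjusted edgeR p under 0.05. In the annotated transcripts 91.8% of the 50-base windows of Dnaaf4 and 68.1% of those of Dnaaf2 occur also in another gene. The levels of these 2 rows therefore depend on how shared reads were counted. Dnaaf1, a leucine-rich repeat protein, was called higher at 0.136 and 0.490 CPM in control cells and 1.24 and 1.05 CPM in the labelled-knockout libraries (log2 fold change 1.83 ± 0.57, edgeR adjusted p 0.0178). Its counts were 3 and 12 in control cells and 29 and 25 in the labelled-knockout libraries. Only 1 control was above the filter, so Dnaaf1 reached the test through the labelled-knockout libraries, which favours a higher call. The call was lost with DESeq2 (adjusted p 0.064), without control 1 (edgeR adjusted p 0.206) and without replicate 1 of the labelled-knockout libraries (edgeR adjusted p 0.106). Its exons overlap 584 bases of Taf1c on the other strand, which was at 14.5 and 14.7 CPM in control cells and 15.3 CPM in each library labelled knockout; the part of shared reads was not tested.

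Of the 4 tested genes of cytoplasmic dynein 1, only the heavy chain gene was called, against 33.6% of all tested genes, and it was lower. Dync1h1 (chr12:110601452-110666945, plus strand, GRCm38/mm10), the ATPase of the motor, was at 1169.7 and 1174 CPM in control cells and 885.2 and 889.7 CPM in the labelled-knockout libraries. The SD between replicates was 3.02 and 3.18 CPM, and the groups did not overlap, nor did those of 66.6% of all tested genes. The log2 fold change was -0.40 ± 0.06 (edgeR adjusted p 1.44e-05). Per kilobase Dync1h1 was at 74.8 CPM per kb on average in control cells, behind only the pseudogene Dynlt1-ps1. The ratio of Dync1h1 CPM to Dnah8 CPM was 2.35 and 2.33 in control cells and 6.03 and 6.10 in the labelled-knockout libraries. This ratio is not corrected for length, and Dync1h1 has 15.7 kb of exon against 26.8 kb for Dnah8.

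The other tested chains of dynein 1 were not called. Dync1i2, the intermediate chain that binds dynactin, was at 124.1 and 122.4 CPM in control cells and 121.4 and 127.6 CPM in the labelled-knockout libraries (log2 fold change 0.01 ± 0.07, edgeR adjusted p 0.889). Its partners, the light intermediate chains Dync1li1 and Dync1li2, which hold cargo adaptors, had log2 fold changes of -0.15 (edgeR adjusted p 0.093) and -0.17 (edgeR adjusted p 0.0683), each with both libraries labelled knockout below both controls. The groups kept apart for 66.6% of all tested genes. Dync1li2 passed the threshold without replicate 1 of the labelled-knockout libraries (edgeR adjusted p 0.039). Dync1i1, the intermediate chain found mostly in neurons, had 26 and 11 counts in control cells and 7 and 4 in the labelled-knockout libraries. It did not pass the filter; without the filter its log2 fold change was -1.78 ± 0.68 (edgeR adjusted p 0.0416). Of 10 neuronal markers, 9 were tested, with 4 called lower (Map2, Elavl3, Gap43 and Snap25) and 0 higher. Over all tested genes 17.2% were called lower and 16.5% higher. Snap25 had 8 and 7 counts in the labelled-knockout libraries, so it reached the test only through the controls and had to come out lower. Stmn2 and Tubb3, the most abundant of the markers, had log2 fold changes of -0.04 and -0.05, and Elavl4 one of 0.24. None of these was called. Dcx was at 0. The summed level of the markers was 235.7 and 232.4 CPM in control cells against 210.9 and 210.1 CPM in the labelled-knockout libraries. The part of these markers in the level of Dync1i1 was not tested.

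In dynein 2, 1 of 2 genes was called, against 33.6% of all tested genes. Dync2li1, the light intermediate chain, was at 8.84 and 9.07 CPM in control cells and 6.72 and 4.92 CPM in the labelled-knockout libraries (log2 fold change -0.62 ± 0.18, edgeR adjusted p 0.0105). That call was lost without replicate 2 of the labelled-knockout libraries (edgeR adjusted p 0.0942). Dync2h1, the heavy chain of retrograde transport in cilia, was at 35.5 and 31.4 CPM and then 30.4 and 25.1 CPM (log2 fold change -0.27 ± 0.11, edgeR adjusted p 0.0603). It passed the threshold without replicate 1 of the labelled-knockout libraries (edgeR adjusted p 0.00119) and without the filter (edgeR adjusted p 0.0396).

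The light chains of the cytoplasmic dyneins had 5 of 8 tested rows called higher and 0 lower, with a median log2 fold change of 0.44. Over all tested genes 16.5% were called higher and 17.2% lower. None of the 8 had an unadjusted edgeR p under 0.05 on the lower side, and DESeq2 called 0 there. Dynll1, of the LC8 type, which also binds many proteins outside the motor, was at 98.4 and 94.9 CPM in control cells and 129.4 and 148.3 CPM in the labelled-knockout libraries (log2 fold change 0.52 ± 0.07, edgeR adjusted p 1.43e-05). Dynll2, the other LC8 gene, was at 24.2 and 24.6 CPM and then 33.7 and 40.4 CPM (log2 fold change 0.60 ± 0.10, edgeR adjusted p 0.000142). Neither gene's groups overlapped, nor did those of 66.6% of all tested genes. Replicate 2 of the labelled-knockout libraries was the highest for both Dynll1 and Dynll2. Dynlrb1, of the roadblock type, was at 12.2 and 11.3 CPM in control cells and 13.3 and 18.2 CPM in the labelled-knockout libraries (log2 fold change 0.43 ± 0.15, edgeR adjusted p 0.0301). That call was lost with DESeq2 (adjusted p 0.0848), without control 2 (edgeR adjusted p 0.131) and without replicate 2 of the labelled-knockout libraries, where the log2 fold change was 0.18 (edgeR adjusted p 0.418). Dynlrb2, the other roadblock gene, had 0 counts in all 4 libraries.

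Dynlt1a and Dynlt1b, of the Tctex type, were the other light chains called higher, and their reads cannot be assigned with certainty. The coding parts of Dynlt1a, Dynlt1c and Dynlt1f and the whole 342 bases of the pseudogene Dynlt1-ps1 are identical, and Dynlt1b differs at 1 base, whereas Dynlt3 shares 63.6% of its aligned bases with them. In the annotated transcripts 70.5% of the 50-base windows of Dynlt1a and 83.2% of those of Dynlt1b occur also in another gene. The first 120 coding bases from GENCODE M21 are shown because a read within them cannot be placed among the identical copies. Capitals mark bases that differ from Dynlt1c.
Dynlt1c: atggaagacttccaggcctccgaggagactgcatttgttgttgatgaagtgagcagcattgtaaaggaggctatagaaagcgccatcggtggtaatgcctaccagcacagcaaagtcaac
Dynlt1b: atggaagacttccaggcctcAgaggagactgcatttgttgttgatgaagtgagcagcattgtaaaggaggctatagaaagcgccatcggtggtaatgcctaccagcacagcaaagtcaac
Dynlt3: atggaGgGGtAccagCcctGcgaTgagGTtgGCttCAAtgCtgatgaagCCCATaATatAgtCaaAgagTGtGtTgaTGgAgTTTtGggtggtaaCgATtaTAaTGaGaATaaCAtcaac
Dynlt1a was at 3.08 and 2.90 CPM in control cells and 4.79 and 4.62 CPM in the labelled-knockout libraries (log2 fold change 0.65 ± 0.23, edgeR adjusted p 0.0301). Dynlt1b was at 5.89 and 5.84 CPM and then 8.56 and 7.52 CPM (log2 fold change 0.45 ± 0.17, edgeR adjusted p 0.0482). For Dynlt1a the call was lost when any single library was left out (edgeR adjusted p 0.0523 to 0.123) and with DESeq2 (adjusted p 0.108). That on Dynlt1b was lost with DESeq2 (adjusted p 0.149), without the filter (edgeR adjusted p 0.0629), without control 1 (edgeR adjusted p 0.139), without control 2 (edgeR adjusted p 0.151) and without replicate 1 of the labelled-knockout libraries (edgeR adjusted p 0.189).

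The pseudogene row held most of the reads of this family. Dynlt1-ps1 was at 79.1 and 79.0 CPM in control cells and 85.3 and 94.9 CPM in the labelled-knockout libraries (log2 fold change 0.19 ± 0.07, edgeR adjusted p 0.0514). It passed the threshold with median-of-ratios scaling (edgeR adjusted p 0.045), with library size alone (0.00738), with at least 5 CPM in 2 libraries (0.0281) and without replicate 1 of the labelled-knockout libraries (0.00173). At 231.1 CPM per kb it ranked 1 among the 43 rows in control cells, and 100% of its 50-base windows occur in other genes. Dynlt1c and Dynlt1f had log2 fold changes of 0.15 and 0.03 and were not called. Summed over the 4 genes and the pseudogene, the level was 107.6 and 106.8 CPM in control cells and 118.9 and 128.4 CPM in the labelled-knockout libraries, a log2 ratio of 0.21. Dynlt3, which has no such copy, was at 21.4 and 24.0 CPM and then 20.96 and 20.55 CPM (log2 fold change -0.13, edgeR adjusted p 0.392).

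**Figure D2:**
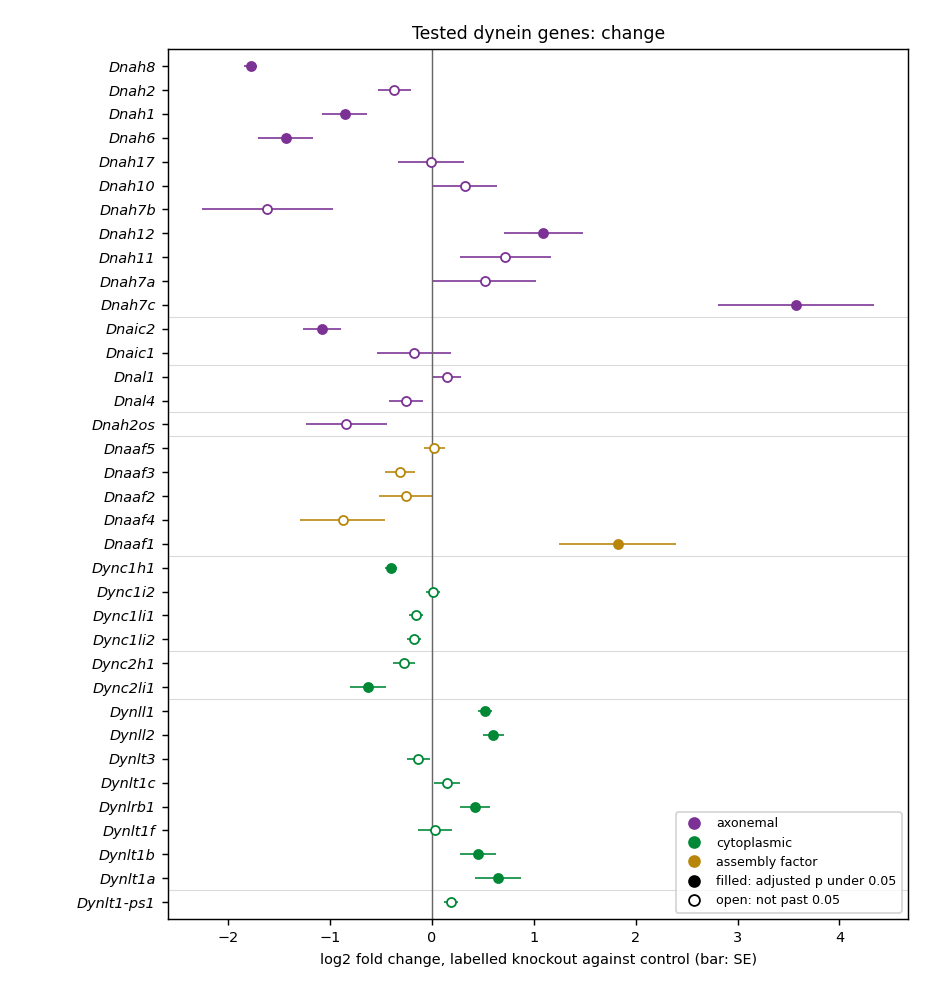
Log2 fold change of the 36 tested dynein rows in the labelled-knockout libraries against the controls (horizontal axis, points; bars are SE, n = 2 per group), coloured by class and filled where the edgeR adjusted p is under 0.05. Filled axonemal points lie from -1.77 for Dnah8 to 3.58 for Dnah7c, and filled cytoplasmic points from -0.62 for Dync2li1 to 0.65 for Dynlt1a.

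Next to the threshold, Dynlrb1 (0.0301), Dnah12 (0.0344) and Dynlt1b (0.0482) had edgeR adjusted p-values just inside it. Those of Dynlt1-ps1 (0.0514), Dnah7b (0.058), Dync2h1 (0.0603) and Dync1li2 (0.0683) were just outside. Of the 14 called genes, 7 kept their call under each alternative that tested them, namely Dnah6, Dnah7c, Dnah8, Dnaic2, Dync1h1, Dynll1 and Dynll2. For Dnah7c this says nothing of stability, since it reached the test only through the labelled-knockout libraries.

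Class sums were taken with and without the most abundant member. The axonemal sum was 556.6 ± 2.08 CPM in control cells and 192.4 ± 1.68 CPM in the labelled-knockout libraries (SD, n = 2), a log2 ratio of -1.53. Without Dnah8 it was 56.1 ± 2.38 and 46.1 ± 2.27 CPM, a log2 ratio of -0.28. The sum of dynein 1 was 1480.4 ± 4.77 and 1177 ± 6.06 CPM (log2 ratio -0.33), of which Dync1h1 held 78.8% and 79.5% in control cells and 75.5% and 75.3% in the labelled-knockout libraries. These sums and shares are not corrected for length, so long genes weigh more. Without Dync1h1 the log2 ratio was -0.09.

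Dynein 2 summed to 42.4 ± 2.71 and 33.6 ± 5.01 CPM (log2 ratio -0.34). The light chains, pseudogene included, summed to 262.7 ± 1.52 and 336.1 ± 28.0 CPM (log2 ratio 0.35, and 0.25 without Dynll1). Assembly factors summed to 51.0 ± 1.25 and 48.9 ± 6.10 CPM, a difference smaller than the spread between replicates. For the other 4 sums the groups kept apart, and the exact 2-sided permutation test over the 4 libraries gave a p of 0.333, the smallest this design allows.

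**Figure D3:**
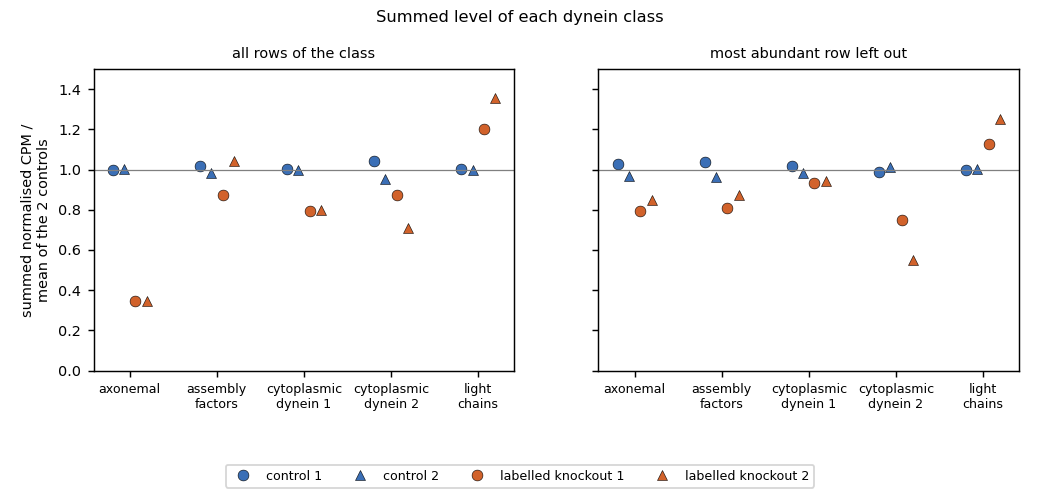
Summed normalised CPM of each dynein class in each library, divided by the mean of the 2 controls (vertical axis from 0), with all rows of the class on the left and the most abundant row left out on the right. The axonemal sum lies below the controls by a log2 ratio of -1.53 with Dnah8 and -0.28 without it, and the light chain sum is above the controls in both panels.

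Promoter windows were found in the RefSeq table (GRCm38.p6) for 34 of the 43 rows, 36 windows in all, each from 250 bases before to 50 bases after a start. The letters GTTGCC, a half-site of the X-box that RFX factors bind, occurred on either strand in 14 of the 36 windows and in 12.5% of 32851 windows of all genes. By class it was in 5 of 19 axonemal, 6 of 13 cytoplasmic and 3 of 4 assembly factor windows. The axonemal matches include the near-copies Dnah7a, Dnah7b and Dnah7c, and the cytoplasmic ones include 2 overlapping windows of Dync1i2. These matches are therefore not independent of each other. The forkhead core TGTTTAC occurred in the window of Dnah17 alone and in 3.65% of all windows, and the TATA box letters TATAAA in that of Dnah12 alone and in 13.6% of all windows. The windows of the dynein rows held a median of 12 CG dinucleotides against 7 over all windows.
The bases before the start of Dynll1 (chr5:115301000-115301240, minus strand, GRCm38.p6) are shown as those of the called light chain with the lowest adjusted p, with the X-box half-site, here on the opposite strand, in capitals.
Dynll1: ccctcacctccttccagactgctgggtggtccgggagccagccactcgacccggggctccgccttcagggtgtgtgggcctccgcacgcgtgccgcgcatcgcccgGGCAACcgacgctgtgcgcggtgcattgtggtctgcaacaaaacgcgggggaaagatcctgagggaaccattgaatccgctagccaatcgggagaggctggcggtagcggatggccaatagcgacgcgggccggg
The windows of Dnah8 and Dync1h1 held none of the 3 motifs. A match of letters is a description of the window and no evidence of binding.

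Genes that work with the dyneins were counted in 5 lists. In the list of dynein-2 chains named otherwise, intraflagellar transport and the BBSome, 16 of 37 tested genes were called lower and 0 higher, with a median log2 fold change of -0.31. The shares over all tested genes were 17.2% lower and 16.5% higher. On the higher side 0 had an unadjusted edgeR p under 0.05 and DESeq2 called 0. Ift140, of the complex that travels with dynein 2, was at 74.0 and 74.9 CPM in control cells and 46.8 and 43.7 CPM in the labelled-knockout libraries (log2 fold change -0.72 ± 0.08, edgeR adjusted p 5.75e-07). Wdr19, of the same complex, was at 33.2 and 30.4 CPM and then 17.5 and 16.6 CPM (log2 fold change -0.90 ± 0.11, edgeR adjusted p 1.95e-06). Ttc21b, also of that complex, was at 31.7 and 29.5 CPM and then 19.6 and 17.5 CPM (log2 fold change -0.72 ± 0.11, edgeR adjusted p 3.13e-05). For each of them both libraries labelled knockout lay below both controls, and the groups kept apart for 66.6% of all tested genes. Among the chains of dynein 2 itself, chosen here after their values were seen, the intermediate chain Wdr34 had a log2 fold change of -0.79 (edgeR adjusted p 4.4e-05), the light chain Tctex1d2 one of -0.55 (edgeR adjusted p 0.00725), and the intermediate chain Wdr60 one of -0.14 (edgeR adjusted p 0.663).

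Of the other genes for arm assembly and docking, 15 were tested, 6 were called lower and 1 higher, against 17.2% lower and 16.5% higher over all tested genes, and the median log2 fold change was -0.13. Efcab1, among the 6, had 22 and 23 counts in control cells and 1 and 6 in the labelled-knockout libraries. It reached the test only through the controls and had to come out lower. Ttc12, an assembly factor, was at 18.5 and 20.4 CPM in control cells and 7.23 and 10.4 CPM in the labelled-knockout libraries (log2 fold change -1.14 ± 0.15, edgeR adjusted p 7.39e-06). Zmynd10, which acts in arm pre-assembly, was at 4.13 and 3.68 CPM and then 0.471 and 0.967 CPM (log2 fold change -2.43 ± 0.35, edgeR adjusted p 2.27e-05). Ccdc151, a docking protein of the outer arm, was at 2.68 and 3.06 CPM and then 0.941 and 0.799 CPM (log2 fold change -1.72 ± 0.35, edgeR adjusted p 0.000659). These 3 fell, while Ruvbl1 and Ruvbl2, the ATPases of a general chaperone complex in the same list, were between 94.1 and 221.2 CPM and were not called.

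In the list of other axoneme structure, 42 of 63 genes in the table were tested, 9 were called lower and 3 higher, and the median was -0.21. All tested genes had 17.2% called lower and 16.5% higher. Hydin, of the central pair, was at 16.4 and 16.7 CPM in control cells and 6.42 and 5.34 CPM in the labelled-knockout libraries (log2 fold change -1.49 ± 0.15, edgeR adjusted p 1.88e-07). Iqcg, of the nexin-dynein regulatory complex, was at 25.5 and 26.7 CPM and then 16.4 and 16.8 CPM (log2 fold change -0.65 ± 0.11, edgeR adjusted p 0.00011). Efhc2, of the microtubule doublet, went up from 0.680 and 0.327 CPM to 3.21 and 3.28 CPM (log2 fold change 2.69 ± 0.39, edgeR adjusted p 2.41e-05). Its counts in control cells were 15 and 8, and the 8 is under the filter's cut of 10 counts at the median library size. Efhc2 was therefore tested through the labelled-knockout libraries, which favours a higher call. Ccdc65, also called higher, had 9 and 11 counts in control cells, both under that cut for their library size, so it had to come out higher. Spag6, Spag17 and Tekt3 were at 0 in all 4 libraries.

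Among the regulators of ciliogenesis, 15 were tested, 3 were called lower and 2 higher, against 17.2% and 16.5% of all tested genes. Myb, which acts early in multiciliated cells and also drives blood progenitors, was at 29.3 and 28.3 CPM in control cells and 13.2 and 15.7 CPM in the labelled-knockout libraries (log2 fold change -0.996 ± 0.12, edgeR adjusted p 1.6e-06). Rfx7 was at 125.7 and 129.6 CPM and then 148.2 and 157.6 CPM (log2 fold change 0.26, edgeR adjusted p 0.00431), and Foxn4 at 7.26 and 6.86 CPM and then 4.83 and 4.58 CPM (log2 fold change -0.58, edgeR adjusted p 0.0184).

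Among dynactin and the dynein adaptors, 5 of 31 tested genes were called lower and 4 higher, with a median of 0.03, against 17.2% lower and 16.5% higher over all tested genes. Bicd1, a cargo adaptor, was at 14.1 and 10.6 CPM in control cells and 26.3 and 29.2 CPM in the labelled-knockout libraries (log2 fold change 1.18 ± 0.13, edgeR adjusted p 9.15e-07). Hook1 and Hook2, also adaptors, had log2 fold changes of -0.52 ± 0.06 (edgeR adjusted p 2.42e-06) and -0.51 ± 0.08 (edgeR adjusted p 5.12e-05). Hook1 was at 206.2 and 208.0 CPM in control cells and 144.3 and 144.2 CPM in the labelled-knockout libraries. Pafah1b1, the regulator also known as Lis1, and Dctn1, the dynactin subunit that binds the intermediate chain, had log2 fold changes of 0.02 and 0.08 and were not called.

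**Figure D4:**
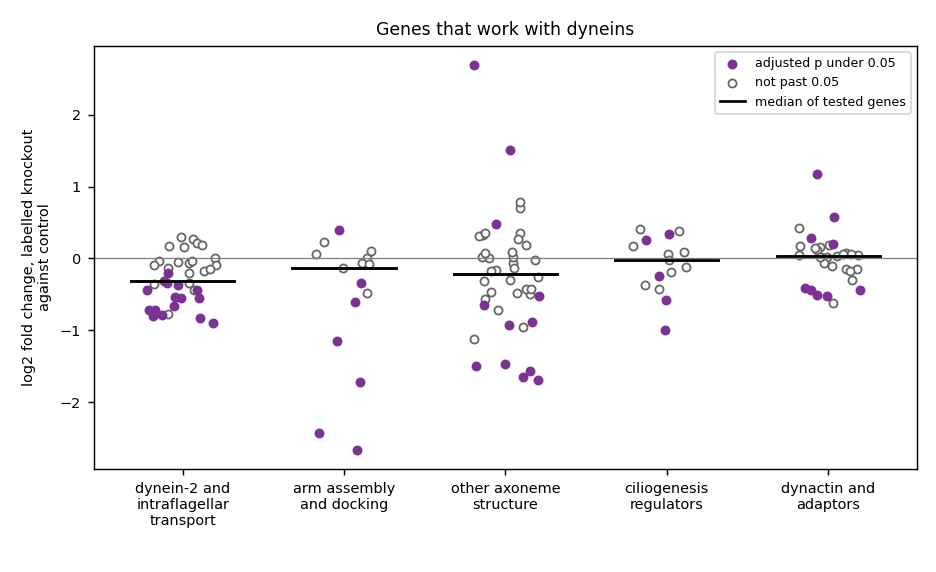
Log2 fold change of the tested genes of the 5 related lists in the labelled-knockout libraries against the controls (vertical axis; 1 point per gene, spread sideways for legibility), filled where the edgeR adjusted p is under 0.05, with the list's median as a bar. In the list of dynein 2 and intraflagellar transport the 16 filled points lie below 0, while the axoneme list reaches from -1.69 for Rsph3b to 2.69 for Efhc2.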

How the data were processed

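Strand-specific, ribosomal-RNA-depleted total RNA of 4 libraries was analysed. The table the authors deposited holds raw counts, 1 row per gene symbol, without scaling. The submitters' processing notes name featureCounts, HISAT2 and cutadapt and the build mm10. Tool versions, annotation release, strand setting and handling of multiply mapping reads: not given in the sources used here. Near-identical copies and antisense partners may therefore share reads.

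Rows were selected by symbol, and the members and lists were chosen with earlier results of these data known. In edgeR 4.0.16 (R 4.3.3), filterByExpr was applied ( minimum count 10, minimum total 15), libraries were scaled by TMM, and groups were compared with the quasi-likelihood F test (2-sided, 2 residual degrees of freedom, prior count 0.125, Benjamini-Hochberg over 17482 genes, threshold 0.05). The SE is the log2 fold change divided by the square root of F. CPM use TMM-scaled library sizes. 3 counts correspond to 0.123 to 0.136 CPM; intervals cover counting error only. Exon lengths and positions come from GENCODE M21 (GRCm38). Alternatives were other scalings, DESeq2 1.42.0, other filters, leaving out libraries and a replicate block. The fitting scripts were tested on simulated data.

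Named genes are the called members, the most abundant member per kb of each class, and in each related list the 3 called genes of smallest adjusted p; others were named after their values were seen.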

Additional observations from a re-analysis of the deposited data

How the results depend on the processing

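No called dynein gene reversed direction under the alternatives run. DESeq2 called 2225 genes higher and 2198 lower over all genes, against 2877 and 3000 in edgeR, and gave 3 dynein genes higher in place of 8, with 1 axonemal, 2 cytoplasmic and 0 assembly factors, and in the lists 0 higher for arm assembly, 1 higher for axoneme structure, and 1 higher and 1 lower for the ciliogenesis regulators. With at least 5 CPM in 2 libraries, 21 dynein rows were tested and 5 were higher, with 0 axonemal and 0 assembly factors. On the lower side were 2 axonemal genes, 3 of arm assembly and 4 of axoneme structure, where 1 was higher. Over all genes this filter tested 11033, with 2332 higher and 2426 lower. The fewer dynein and list calls include genes that the stricter filter did not test. Without a filter 4 cytoplasmic genes were lower in place of 2. That fit tested 42 dynein rows, and over all 28720 genes tested it called 2972 higher and 3122 lower. Leaving the light chains out of the cytoplasmic class left 0 higher. Scaling by library size alone moved the median of all genes from 0.00 to 0.09 on the log2 scale and the split of all calls from 2877 higher and 3000 lower to 3887 higher and 2215 lower; it gave 8 higher for dynactin and adaptors, 2 for dynein 2 and intraflagellar transport and 2 for arm assembly. The axonemal count was the same without Dnah2os, and the cytoplasmic count without Dynlt1-ps1, both tried after seeing the data.

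Leaving out 1 library at a time gave 4 to 6 dynein genes higher (4 without control 1, 5 without control 2 and 5 without replicate 2 of the labelled-knockout libraries) and 5 to 8 lower. Over all genes the counts were 1915 higher and 2123 lower without control 1, 2042 and 2105 without control 2, 2995 and 3244 without replicate 1 and 2691 and 2889 without replicate 2 of the labelled-knockout libraries. Axonemal genes were 1 to 2 higher (1 without control 1 or replicate 2 of the labelled-knockout libraries) and 3 to 5 lower. Cytoplasmic genes were 2 to 4 higher (3 without control 1, 2 without control 2, 3 without replicate 2 of the labelled-knockout libraries) and 1 to 4 lower (4 without replicate 1 and 1 without replicate 2 of the labelled-knockout libraries). Assembly factors were 0 to 1 higher (0 without control 1 or replicate 1 of the labelled-knockout libraries). In the lists the range of genes higher was 2 to 5 for dynactin and adaptors (2 without control 1), 0 to 1 for arm assembly (0 without control 1, control 2 or replicate 2 of the labelled-knockout libraries), 1 to 2 for axoneme structure (1 without control 1) and 0 to 3 for the ciliogenesis regulators (0 without control 1), where 1 to 3 were lower (1 without control 1 or replicate 2 of the labelled-knockout libraries). The cause of these changes was not tested.

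For the sums, leaving out the most abundant member gave log2 ratios of -0.28 (axonemal), -0.0905 (dynein 1), -0.64 (dynein 2), 0.25 (light chains) and -0.25 (assembly factors). Library size alone gave -1.45, -0.25 and, for the assembly factors, a reversed 0.0178. Without replicate 1 of the labelled-knockout libraries the assembly factor sum also reversed, to 0.0627, in a range of -0.19 to 0.0627.

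The deviations of same-numbered libraries had a correlation of 0.01 across genes. Counting noise lowers such a correlation, so it cannot show that same-numbered libraries share no source. With the replicate number as a block 3 further members passed, Dnah7b (-1.56, edgeR adjusted p 0.0386), Dync2h1 (-0.27, edgeR adjusted p 0.0266) and Dynlt1-ps1 (0.19, edgeR adjusted p 0.0372), and no dynein call was lost. Over all genes the block gave 3072 higher and 3216 lower, in place of 2877 and 3000.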
